A study of Mus musculus with 26 samples.

Results

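Nr5a2, Nr0b1 and Esrrb are 3 genes for nuclear receptors that belong to the pluripotency network of mouse embryonic stem cells, and they were followed here across all 13 groups of a study of Prdm14. They were taken by symbol from 18193 genes measured on Affymetrix arrays. The 3 symbols had 8 of the 45100 probe sets, and each gene was represented by 1 of them, the one of highest mean over the 26 arrays that is annotated to no other symbol: 1456521_at for Nr5a2, 1417760_at for Nr0b1 and 1436926_at for Esrrb. In the RefSeq annotation of GRCm38.p6, Nr5a2 lies on chr1:136842562-136960448, Esrrb on chr12:86361117-86521628 and Nr0b1 on chrX:86191775-86195947. Messenger RNA levels are given as log2 signal, as deposited; their logarithm has no stated base and was taken as base 2, so every fold below rests on that base.

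The study asked how Prdm14, a PR-domain protein of pluripotent cells and primordial germ cells, acts on gene expression in stem cells held in media that differ in support of the naive state. All lines were labelled C57BL/6 and male, and there were 2 arrays in each of the 13 groups. Wild-type cells, Prdm14(+/+) with no genetic modification, and cells labelled Prdm14(-/-) were each grown in 4 media. The first, 2i, was N2B27 with the MEK inhibitor PD0325901 at 0.4 µM, the GSK3 inhibitor CHIR99021 at 3 µM and LIF at 1000 units/ml. The others were serum, which held 20% FBS and LIF at 1000 units/ml, the same serum without LIF, and serum with LIF and PD0325901 at 0.4 µM, each for 2 days. Cells labelled Prdm14(-/-)+AGP14 are, by their label, knockout cells with a pPyCAG transgene for Prdm14 fused to Avitag and EGFP, and their media were 2i, serum, and serum without LIF. The other cells were epiblast-like cells (EpiLC), a state that resembles the early post-implantation epiblast, taken at day 2 and day 3. Their line had intact Prdm14 and carried the Blimp1-mVenus and Stella-ECFP (BVSC) transgenes, so they differ from the wild-type stem cells in line as well as in state. Stem cells grew on mouse embryonic fibroblast (MEF) feeders. The labels do not say whether the 2 arrays of a group came from separate cultures or whether a line is a single clone. The spread behind each p-value is that between such arrays, pooled over all 13 groups, and may be technical. It is not the spread of the compared groups alone, which can be larger or smaller.

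Nuclear receptors are transcription factors with a DNA-binding domain and a ligand-binding domain. Nr5a2 (LRH-1) binds DNA as a monomer; it is best known for bile acid and steroid synthesis in liver, gut and ovary, and in embryonic stem cells it can activate Pou5f1. Esrrb is an orphan receptor related to the estrogen receptors; it binds DNA without a steroid ligand, partners with the naive factors and sustains self-renewal when LIF signalling is weak. Nr0b1 (DAX1) lacks the usual DNA-binding domain and acts on other factors, as a repressor of NR5A receptors in the adrenal gland and gonad and as a partner of Oct4 in stem cells. LIF acts through STAT3, and MEK inhibition blocks the ERK pathway that drives exit from the naive state.

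The 250 bases before the RefSeq start site of each gene are shown as a description, and no link to the levels was tested. There, 2 of the 3 genes carry the core letters bound by many nuclear receptors. Each is read in the direction of its gene, from 5′ to 3′, on chr1:136960449-136960698 (minus strand) for Nr5a2, chrX:86191525-86191774 (plus strand) for Nr0b1 and chr12:86360867-86361116 (plus strand) for Esrrb. Capitals mark matches to the motifs named after them.
Nr5a2: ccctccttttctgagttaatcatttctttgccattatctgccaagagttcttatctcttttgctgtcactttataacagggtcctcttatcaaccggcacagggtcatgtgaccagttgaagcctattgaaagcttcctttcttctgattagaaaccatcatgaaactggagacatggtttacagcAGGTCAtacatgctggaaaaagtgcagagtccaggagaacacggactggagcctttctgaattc
Nr0b1: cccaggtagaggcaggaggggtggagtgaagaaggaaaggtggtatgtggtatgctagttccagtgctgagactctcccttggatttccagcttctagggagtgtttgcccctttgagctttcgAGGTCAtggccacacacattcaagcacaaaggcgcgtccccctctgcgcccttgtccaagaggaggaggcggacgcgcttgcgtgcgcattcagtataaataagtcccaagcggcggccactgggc
Esrrb: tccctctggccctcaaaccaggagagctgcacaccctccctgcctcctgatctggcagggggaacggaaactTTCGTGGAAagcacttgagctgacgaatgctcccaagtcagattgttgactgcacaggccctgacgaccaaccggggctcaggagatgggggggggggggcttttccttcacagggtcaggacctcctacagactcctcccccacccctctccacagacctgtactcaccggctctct

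Searched on both strands, the nuclear receptor core AGGTCA was found in Nr5a2 from base -64 to -59 and in Nr0b1 from base -126 to -121, counted back from the start site. It was in 14.0% of the 32851 RefSeq windows of this length. Esrrb had no AGGTCA in this window and 1 match to the STAT3 palindrome TTCNNNGAA, TTCGTGGAA from base -178 to -170; 7.02% of windows held that palindrome. None of the 3 windows held AAGGTCA (in 4.08% of windows; it contains AGGTCA), the octamer letters TTTGCAT (4.12%), or GGTCTCT, the first letters of the PRDM14 motif (4.65%). Of the other listed start sites, 1 each for Nr5a2 and Esrrb, neither window held any of these motifs. A match is a description of the letters and not a binding site.

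Array medians lay between 4.86 and 5.01. The level of the deleted gene does not follow the genotype labels. Prdm14 was at 9.18 in wild-type and 11.3 in labelled knockout arrays in 2i, a difference of 2.11 in the direction opposite to the label (limma adjusted p = 0.00268), and with MEK inhibitor it was again higher in the labelled knockout, by 1.48 (adjusted p = 0.0491). In serum it was at 6.63 and 5.94 (difference -0.69, adjusted p = 0.389), and without LIF the difference was -1.10, in the direction of the label but not called (adjusted p = 0.153). In AGP14 cells Prdm14 was at 9.21 in 2i, below the labelled knockout (-2.08, adjusted p = 0.001), at 6.38 in serum (0.44 above it, adjusted p = 0.593) and at 4.99 without LIF (1.36 above it, adjusted p = 0.0326). Against wild type its differences in AGP14 cells were 0.03, -0.26 and 0.27, none of them called (adjusted p = 0.769 to 0.970). No source used here says where its probe set lies relative to the deletion and to the transgene, so it checks neither the knockout nor the transgene, and every direction by genotype below rests on the labels. The poly-A labelling control lys put the arrays in 2 sets, 12 arrays of 6 groups at 13.4 to 13.6 and 14 arrays of 7 groups at 6.77 to 7.38. The high set holds wild-type and labelled knockout arrays in 2i and in serum with MEK inhibitor, and both EpiLC groups. The low set holds all AGP14 arrays and all arrays in serum or serum without LIF. Where a comparison below crosses the sets, set and condition cannot be told apart. The stem cell marker Pou5f1 was between 12.2 and 12.7 in every group, and Fgf5, a marker of EpiLC, was at 2.87 to 3.42 in 2i and at 9.67 in EpiLC of day 2. Pou5f1 thus did not part the states. The stem cell marker Zfp42 differed more between groups, with means from 8.85 to 11.4. Within 2i the EpiLC marker Dnmt3b differed more between lines than Fgf5, at 11.4 in labelled knockout and 9.43 in wild type. The mean of 9 primed and epiblast-like genes was 6.63 to 6.89 on arrays in 2i and 9.90 to 9.94 in EpiLC of day 2. In wild type and labelled knockout without LIF it was 9.86 to 10.1, and in AGP14 cells without LIF it was 9.46 to 9.58. In EpiLC of day 3 it was 8.83 to 8.94. Feeder RNA was present in all stem cell groups. The mean of 14 feeder genes was 8.37 to 8.77 on arrays in 2i, 5.88 to 7.03 in serum with or without LIF, 7.11 to 7.40 with MEK inhibitor and 4.51 to 4.54 in EpiLC, and no marker was at 0 in any group. In such bulk samples fewer cells of a type and less RNA per cell cannot be told apart. Extraembryonic endoderm markers had means from 3.60 to 4.71 and trophoblast markers from 5.67 to 6.46.

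Across the groups Nr5a2 had the widest range of the 3 genes, from 10.4 in wild type in 2i to 3.82 in EpiLC of day 3, a span of 6.60. Its group means ran in this order: wild type in 2i (10.4), AGP14 in 2i (10.3), wild type with MEK inhibitor (10.3) and labelled knockout in 2i (10.2), then AGP14 in serum (9.94), labelled knockout with MEK inhibitor (9.78) and AGP14 without LIF (9.52). Below these came wild type in serum (8.96), labelled knockout in serum (7.38), wild type without LIF (7.27), labelled knockout without LIF (5.09) and EpiLC of day 2 (4.56) and day 3. Nr0b1 ran from 11.8 in AGP14 in serum to 7.43 in the labelled knockout without LIF, and Esrrb from 11.2 in wild type in 2i to 7.12 in EpiLC of day 2. For Nr0b1, 8 groups lay between 10.7 and 11.8 and the arrays of most neighbours in that run overlapped. For Esrrb, the lowest groups were labelled knockout without LIF (7.16) and EpiLC of day 3 (7.54) and day 2, whose arrays overlapped from each to the next in order. The highest groups of each gene were in 2i, MEK inhibitor or AGP14, and the lowest were EpiLC and the labelled knockout without LIF.

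**Figure D1:**
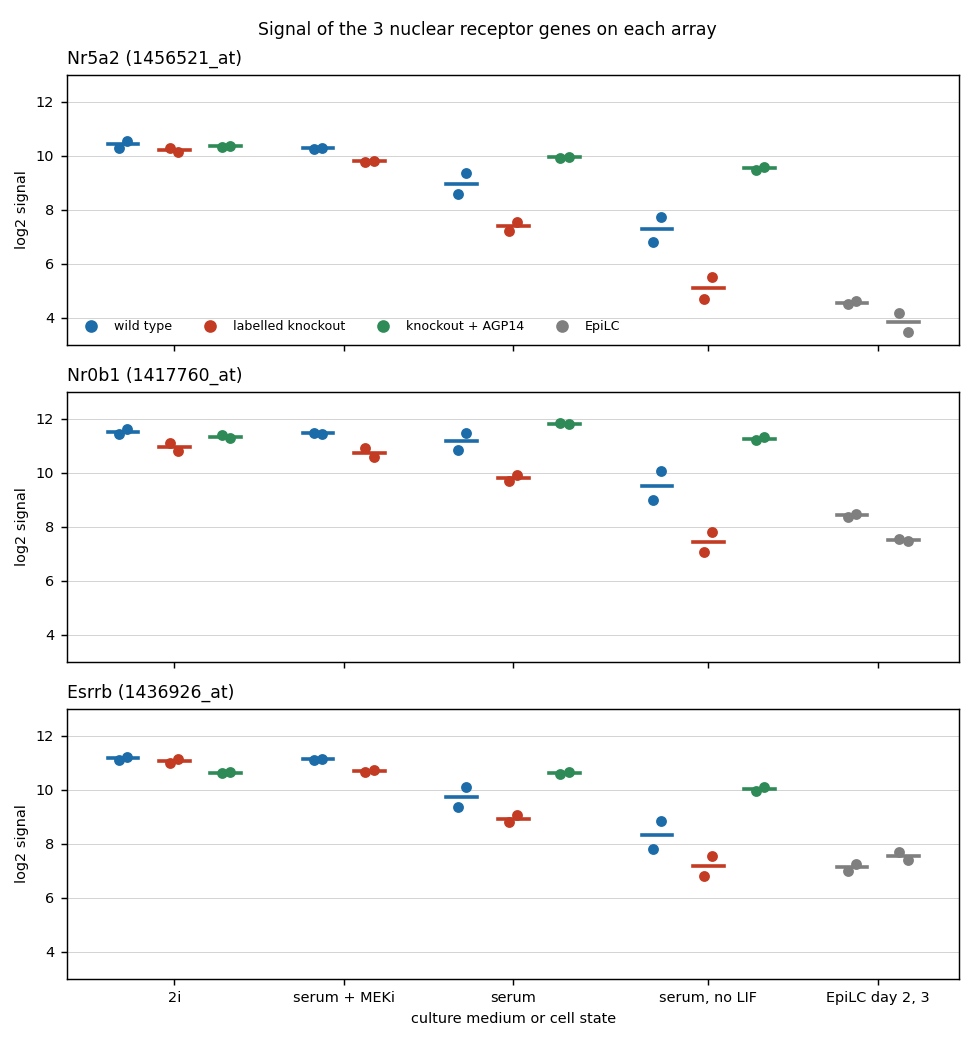
Log2 signal (y axis) of Nr5a2, Nr0b1 and Esrrb on each of the 26 arrays, by medium or cell state (x axis) and genotype (colour); points are arrays and bars the mean of 2. In serum and serum without LIF the labelled knockout arrays lie lowest and the AGP14 arrays highest for each gene, while in 2i the group means lie within 0.58 of each other.

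In serum, Nr5a2 and Nr0b1 were lower in the labelled knockout than in wild type. Nr5a2 was at 7.20 and 7.55 in the labelled knockout and at 8.57 and 9.34 in wild type. The arrays did not overlap, which was so for 45.2% of all genes here and for 39.2% to 65.2% in all comparisons of 2 groups, and the difference was -1.58 ± 0.29 (SE; 2.99-fold lower, adjusted p = 0.00417). Nr0b1 was at 9.68 and 9.91 against 10.83 and 11.48. Both knockout-labelled arrays again lay below both wild-type arrays (difference -1.36 ± 0.27, SE, 2.57-fold lower, adjusted p = 0.00700). Esrrb was at 8.80 and 9.04 against 9.37 and 10.11, a difference of -0.82 ± 0.27 (SE) that did not pass (adjusted p = 0.0933). Thus 2 of the 3 genes were called, where 4.17% of all genes were called in either direction and 2.79% were lower. These calls depend on single arrays: the count was 0 without labelled knockout replicate 1 in serum and 0 without wild-type replicate 2 in serum, with adjusted p for Nr5a2 of 0.0574 and 0.0651. In a fit to the 4 arrays of the comparison alone it was also 0.

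Without LIF, all 3 genes were lower in the labelled knockout than in wild type. Nr5a2 was at 4.67, below every array median, and 5.50 in the labelled knockout and at 6.80 and 7.74 in wild type, a 4.55-fold difference (-2.19 ± 0.29, SE, adjusted p = 0.000241). Nr0b1 was at 7.05 and 7.81 against 8.98 and 10.04, a 4.23-fold difference (-2.08 ± 0.27, SE, adjusted p = 0.000170). Esrrb was at 6.79 and 7.53 against 7.81 and 8.85, a 2.25-fold difference (-1.17 ± 0.27, SE, adjusted p = 0.0164). No arrays of the 3 genes overlapped (44.4% of all genes did not), and the 2 wild-type arrays of each stood about 1 log2 unit apart. The share of all genes called was 4.19%. Feeder genes had a median difference of 0.545 in the same comparison, higher in the labelled knockout, with 1 of 14 called and 12 at an unadjusted p under 0.05, and the part of feeder RNA in the result was not tested. Esrrb was not called without labelled knockout replicate 1 (adjusted p = 0.230) or without wild-type replicate 2 (0.194), and the fit to the 4 arrays alone called 0 of the 3.

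In 2i and with MEK inhibitor, limma called none of the 3 between labelled knockout and wild type, where 9.15% and 4.08% of all genes were called; in each medium 1 of the 3, Nr0b1, had an unadjusted p under 0.05. In 2i the labelled knockout arrays were at 10.29 and 10.14 for Nr5a2, 11.10 and 10.78 for Nr0b1 and 11.0 and 11.13 for Esrrb. The wild-type arrays were at 10.28 and 10.55, at 11.41 and 11.62, and at 11.09 and 11.22. The Nr0b1 arrays did not overlap (difference -0.58, 95% interval -1.13 to -0.02, adjusted p = 0.217), and the intervals of Nr5a2 (-0.81 to 0.41) and Esrrb (-0.65 to 0.47) held 0. With MEK inhibitor, Nr5a2 was at 9.77 and 9.79 against 10.26 and 10.28 in wild type, and Nr0b1 at 10.90 and 10.57 against 11.48 and 11.43. Esrrb was at 10.64 and 10.73 against 11.09 and 11.14. The differences were 0.43 to 0.72 below wild type, none of them called (adjusted p = 0.167 to 0.520). No arrays of the 3 genes overlapped, as for 39.6% of all genes.

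Whether the genotype difference changed between media was tested as an interaction. From 2i to serum the difference of labelled knockout and wild type moved by -1.38 for Nr5a2 (95% interval -2.24 to -0.52, adjusted p = 0.0806), by -0.79 for Nr0b1 (adjusted p = 0.324) and by -0.73 for Esrrb (adjusted p = 0.376). None of the 3 passed with limma, against 2.97% of all genes, and 1 of 3 had an unadjusted p under 0.05. From serum to serum without LIF it moved by -0.61, -0.72 and -0.35. Here limma called 0 of the 18193 genes (0%), with 654 at an unadjusted p under 0.05 and none of the 3 members among them. From serum to MEK inhibitor it moved by 1.09, 0.64 and 0.39 (0 called against 0.231% of all genes; 1 with an unadjusted p under 0.05). In the changes from 2i and to MEK inhibitor, each genotype difference lies within a single poly-A control set, but the set differs between the media. A shift by set that is the same in both genotypes drops out of the interaction. One that differs between the genotypes cannot be told apart from the medium.

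Cells labelled as carrying the AGP14 transgene had higher levels of all 3 genes than labelled knockout cells in both serum media. In serum, AGP14 arrays were at 9.91 and 9.96 for Nr5a2, 11.83 and 11.78 for Nr0b1 and 10.56 and 10.65 for Esrrb. They lay above both labelled knockout arrays for each gene, by 2.56 ± 0.29 (SE) for Nr5a2 (5.90-fold, adjusted p = 1.92e-05). The difference was 2.01 ± 0.27 (SE) for Nr0b1 (4.03-fold, adjusted p = 9.12e-05) and 1.69 ± 0.27 (SE) for Esrrb (3.22-fold, adjusted p = 0.000427). The 3 calls stand beside 10.5% of all genes.

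Without LIF the AGP14 arrays were at 9.46 and 9.58 for Nr5a2, 11.21 and 11.31 for Nr0b1 and 9.94 and 10.11 for Esrrb. Nr5a2 differed from the labelled knockout by 4.44 ± 0.29 (SE), or 21.6-fold (adjusted p = 2.34e-08). Its labelled knockout arrays, at 4.67 and 5.50, lie near the array medians of 4.86 to 5.01, so the size of this fold is uncertain. Nr0b1 differed by 3.83 (14.2-fold, adjusted p = 3.98e-08) and Esrrb by 2.87 (7.29-fold, adjusted p = 9.59e-07), with 13.3% of all genes called. The gap between AGP14 and labelled knockout was wider without LIF than with it by 1.88 for Nr5a2 and 1.82 for Nr0b1. As interactions, added after the values had been seen, these had adjusted p of 0.187 and 0.118, and for Esrrb 0.667 (1.18); 0 of 3 passed beside 0.0770% of all genes, and all 3 had an unadjusted p under 0.05.

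AGP14 cells were also set against wild type in the serum media. In serum the differences were 0.98 for Nr5a2 (adjusted p = 0.0479), 0.65 for Nr0b1 (0.150) and 0.87 for Esrrb (0.0582), with no overlap of arrays for any of them, as for 50.3% of all genes. The 1 call, of Nr5a2, stands beside 6.96% of all genes and was lost without either AGP14 array or without wild-type replicate 1 in serum. The Nr5a2 probe sets 1420410_at (0.84, adjusted p = 0.122) and 1449706_s_at (adjusted p = 0.127) did not give it. In this comparison 4 of 14 feeder genes were called higher in AGP14 cells. Without LIF all 3 were higher, by 2.25 for Nr5a2 (4.76-fold, adjusted p = 0.000114), 1.75 for Nr0b1 (3.36-fold, 0.000465) and 1.70 for Esrrb (3.24-fold, 0.000637), with 10.7% of all genes called. Feeder genes were higher there too: 9 of 14 were called higher in AGP14 than in wild type without LIF, and their mean was 6.92 to 7.03 against 5.88 to 6.33. Against the labelled knockout, at 6.58 to 6.71, 1 of 14 was higher and 1 lower. The part of feeder RNA in the members' differences was not tested. As an interaction, also added after the values had been seen, the gap to wild type moved from serum to serum without LIF by 1.27 for Nr5a2, 1.10 for Nr0b1 and 0.83 for Esrrb, and limma called 0 of all genes (0%, with 904 at an unadjusted p under 0.05, with all 3 members among them).

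In 2i, AGP14 arrays were at 10.33 and 10.35 for Nr5a2, 11.38 and 11.28 for Nr0b1 and 10.61 and 10.64 for Esrrb. Limma called none of the 3 against the labelled knockout or against wild type, where 24.2% and 25.4% of all genes were called, and none had an unadjusted p under 0.05. Esrrb was lower by 0.44 (95% interval -1.0 to 0.12) and by 0.53 (-1.09 to 0.03) without overlap of arrays, as for 61.4% and 60.0% of all genes. These 2 comparisons cross the poly-A control sets.

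**Figure D2:**
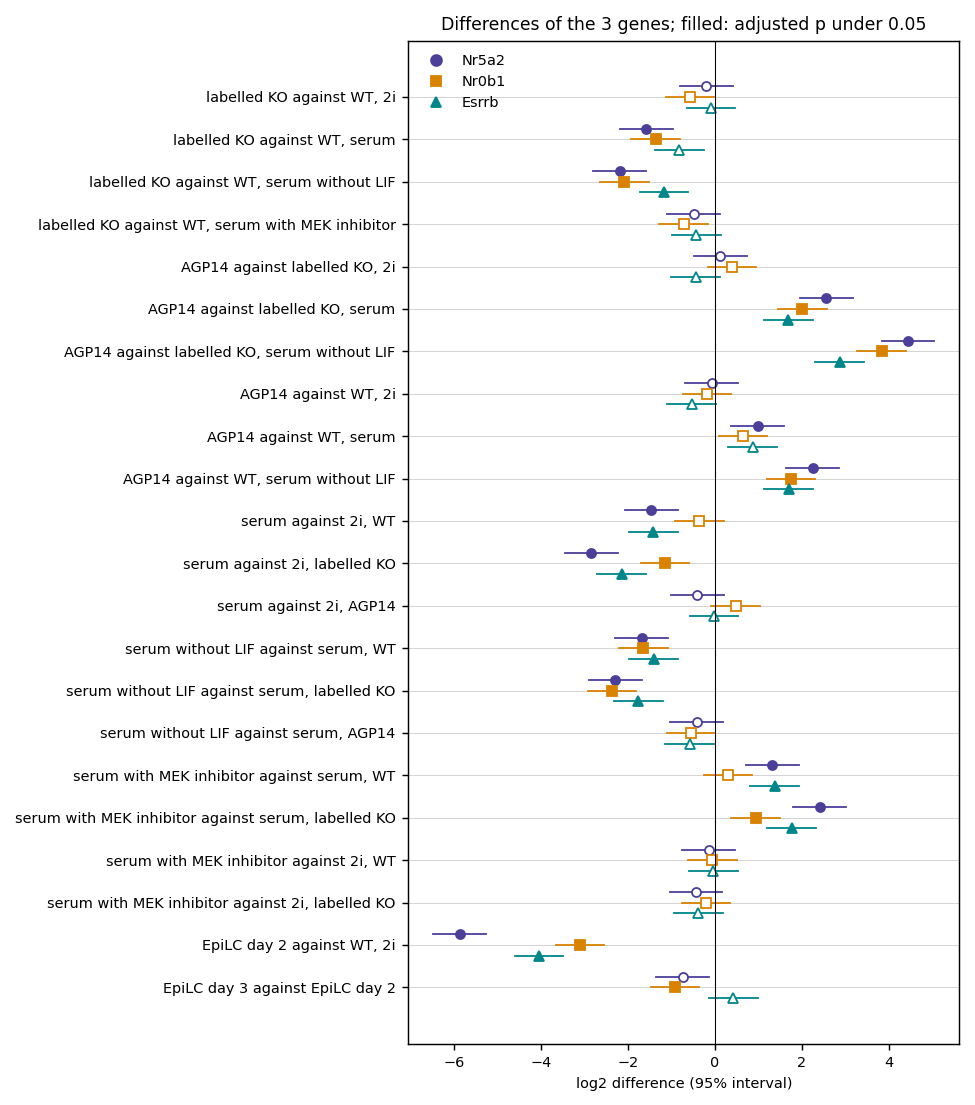
Log2 difference (x axis) of Nr5a2, Nr0b1 and Esrrb in each comparison of 2 groups (y axis), with 95% intervals; filled symbols had an adjusted p under 0.05. AGP14 against labelled knockout without LIF and EpiLC against wild type in 2i lie farthest from 0, on opposite sides.

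From 2i to serum, 2 of the 3 genes fell in wild type and all 3 in the labelled knockout. In wild type, Nr5a2 fell by 1.46 on the log2 scale (2.75-fold, adjusted p = 0.000567) and Esrrb fell by 1.42 (2.67-fold, adjusted p = 0.000365), while Nr0b1 differed by -0.36 with overlapping arrays (adjusted p = 0.336). In the labelled knockout all 3 fell, Nr5a2 by 7.16-fold (-2.84 ± 0.29, SE, adjusted p = 3.60e-07), Esrrb by 4.42-fold (-2.15, adjusted p = 3.98e-06) and Nr0b1 by 2.21-fold (-1.15, adjusted p = 0.00209). The calls, 2 and 3 of 3, stand beside 34.6% and 35.8% of all genes. Both comparisons cross the poly-A control sets. AGP14 cells, whose arrays in 2i and serum are in the same set, had no call among the 3 with limma, none with an unadjusted p under 0.05, and 18.2% of all genes called. There the differences were -0.41 for Nr5a2 (95% interval -1.01 to 0.20), 0.48 for Nr0b1 (-0.08 to 1.03) and -0.02 for Esrrb (-0.58 to 0.54). Feeder genes were lower in serum in all 3 genotypes, with 11, 11 and 10 of 14 called lower; the part of feeder RNA in the result was not tested.

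With MEK inhibitor in serum the wild-type levels of Nr5a2 and Esrrb were higher than in serum alone, by 1.32 (2.49-fold, adjusted p = 0.00225) and 1.38 (2.59-fold, adjusted p = 0.000837). Nr0b1 differed by 0.30 (adjusted p = 0.466). In the labelled knockout all 3 were higher, Nr5a2 by 5.30-fold (2.41, adjusted p = 7.16e-06), Esrrb by 3.40-fold (1.77, adjusted p = 8.37e-05) and Nr0b1 by 1.92-fold (0.94, adjusted p = 0.0140). The shares of all genes called were 25.4% and 24.5%, and both comparisons cross the poly-A control sets. The wild-type call of Nr5a2 was lost without wild-type replicate 1 in serum (adjusted p = 0.0603), and that of Nr0b1 in the labelled knockout without replicate 1 of either group (0.104 and 0.110). Feeder genes were higher with MEK inhibitor than in serum, with 9 of 14 called higher in wild type and 8 in the labelled knockout, and their part in the result was not tested. Serum with MEK inhibitor and 2i are in the same poly-A control set, but 11 of 14 feeder genes were lower with MEK inhibitor than in 2i in each line. None of the 3 was called in wild type (12.5% of all genes) or in the labelled knockout (13.2%) with limma, and none had an unadjusted p under 0.05. The intervals were -0.75 to 0.46 for Nr5a2, -0.62 to 0.50 for Nr0b1 and -0.60 to 0.52 for Esrrb in wild type. In the labelled knockout the differences were -0.43, -0.20 and -0.38.

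Removal of LIF for 2 days lowered all 3 genes in wild-type and labelled knockout cells. In wild type, Nr5a2 fell by 1.69 on the log2 scale (3.22-fold, adjusted p = 0.00561), Nr0b1 fell by 1.65 (3.13-fold, 0.00413) and Esrrb fell by 1.41 (2.66-fold, 0.0116). In the labelled knockout, Nr5a2 fell by 2.29 (4.89-fold, adjusted p = 0.000335), Nr0b1 fell by 2.37 (5.15-fold, 9.25e-05) and Esrrb fell by 1.76 (3.39-fold, 0.00170). Nr5a2 was there at 4.67 and 5.50 without LIF, near the array medians of 4.86 to 5.01, so the size of its fold is uncertain. No arrays of the 3 genes overlapped, as for 39.2% and 40.6% of all genes. All 3 members were among few genes called, 1.50% of all genes in wild type and 1.10% in the labelled knockout. In AGP14 cells the differences were -0.42, -0.55 and -0.58, and limma called none of the 3 (0.302% of all genes called; Esrrb had an unadjusted p under 0.05, 1 of 3). The wild-type count was 0 without serum replicate 2 or without replicate 1 of serum without LIF, and the fits to the 4 arrays of a comparison alone called 0 in wild type, 0 in the labelled knockout and 3 in AGP14 cells.

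**Figure D3:**
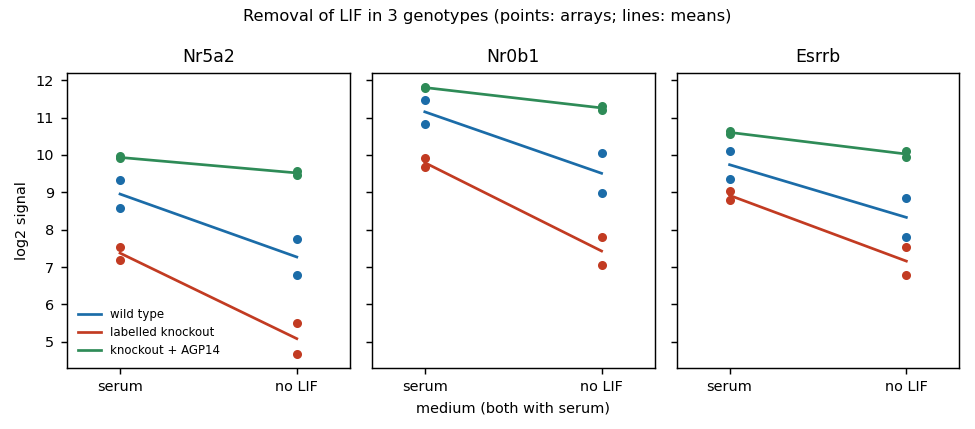
Log2 signal (y axis) of the 3 genes in serum and in serum without LIF (x axis) in wild-type, labelled knockout and AGP14 cells; points are arrays and lines join the means of 2. The lines of AGP14 cells change by -0.42 to -0.58 from serum to no LIF, and those of the labelled knockout change by -1.76 to -2.37.

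EpiLC had low levels of all 3 genes. At day 2 Nr5a2 was at 4.50 and 4.61, Nr0b1 at 8.36 and 8.48, and Esrrb at 6.98 and 7.25. Compared with wild-type stem cells in 2i, Nr5a2 differed by -5.86 ± 0.29 (SE, adjusted p = 1.92e-11); its EpiLC signals lie below every array median and detection calls were not used here, so no fold is given. Esrrb was 16.4-fold lower (-4.04, adjusted p = 8.17e-10) and Nr0b1 8.54-fold lower (-3.10, adjusted p = 2.62e-08). The 3 calls stand beside 38.3% of all genes, and 21.1% of all genes were lower. The groups differ in line and in feeder RNA too, with 12 of 14 feeder genes lower in EpiLC, and the part of these in the result was not tested. At day 3 Nr5a2 was at 4.15 and 3.48, Nr0b1 at 7.52 and 7.48, and Esrrb at 7.69 and 7.38. Nr0b1 fell further from day 2 to day 3, by 0.92 on the log2 scale (adjusted p = 0.0209), the 1 call of the 3 beside 17.6% of all genes. It was lost without any 1 of the 4 EpiLC arrays. Nr5a2 differed by -0.74 (adjusted p = 0.0902) and Esrrb by 0.42 (adjusted p = 0.339), with day 3 above day 2. The labelled knockout without LIF was the stem cell group nearest to these levels: for Esrrb its arrays spanned those of EpiLC day 2, and for Nr0b1 those of day 3.

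The further probe sets were set against those used above. For Nr5a2, 1420410_at and 1449706_s_at followed 1456521_at over the 13 group means (r = 0.996 and 0.964), at lower signals. The fourth, 1449707_at, stayed between 2.52 and 4.21 on all 26 arrays, near the 25th percentile of the arrays (3.2 to 3.28), and did not follow the others (r = 0.198 as a description over 13 means). It gave 0.42 for labelled knockout against wild type without LIF and -0.65 for AGP14 against labelled knockout without LIF, opposite in sign to 1456521_at. From day 2 to day 3 of EpiLC, 1449706_s_at also went the other way, by 0.57. For Esrrb, 1441921_x_at and 1422986_at followed 1436926_at (r = 0.989 and 0.991). Without LIF, labelled knockout against wild type was not called with 1422986_at (adjusted p = 0.276). The mean of the Esrrb probe sets did not give the limma call either (-0.90, adjusted p = 0.0613). Nr0b1 had a single probe set. No source used here says which exon or transcript form each probe set reads.

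**Figure D4:**
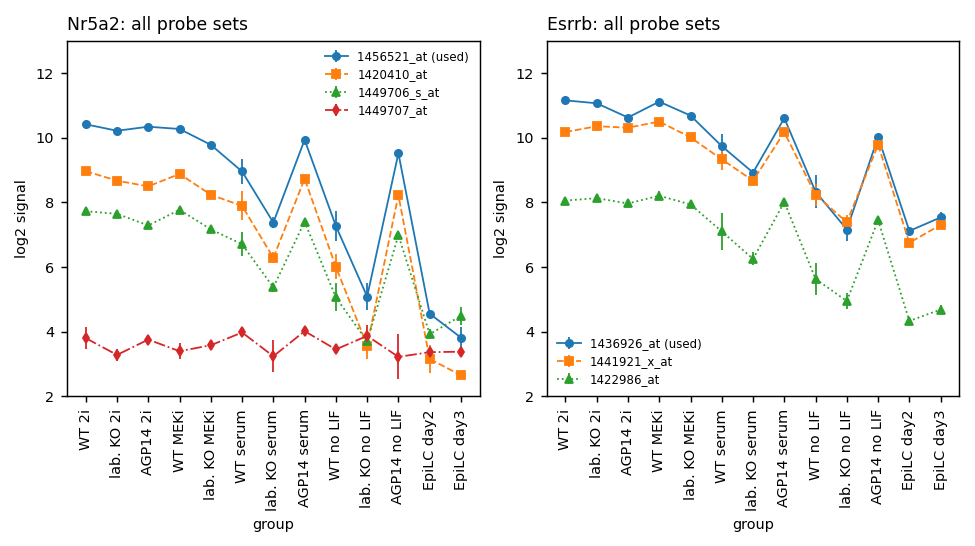
Log2 signal (y axis) of all 4 probe sets of Nr5a2 and all 3 of Esrrb over the 13 groups (x axis); points are means of 2 arrays and bars run from the lower to the higher array. Probe set 1449707_at of Nr5a2 stays between 2.52 and 4.21 on every array, while the others are low in EpiLC and in labelled knockout cells without LIF.

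Of 49 nuclear receptor genes listed, 44 were measured, and the 3 members had the widest spans of group means among them. The spans were 6.60 for Nr5a2, 4.38 for Nr0b1 and 4.04 for Esrrb, ranks 28, 214 and 298 among all genes, where the median span was 1.17. The next receptor, the retinoic acid receptor Rarg, spanned 3.64 in the other direction, from 4.13 in AGP14 in 2i to 7.76 in EpiLC of day 3. In all, 9 of 44 spanned 2 or more, 20 spanned less than the median of all genes, and 16 had no group mean of 5 or more. These counts overlap: the 9 include receptors whose highest group means were 3.97, 3.75 and 2.02, below every array median. Removal of LIF, which lowered the 3 members in wild type and labelled knockout, gave limma calls for 0 of the 41 other receptors in each of the 3 genotypes, with 6, 9 and 5 at an unadjusted p under 0.05. A count of 0 is near the background of 1.50%, 1.10% and 0.302% of all genes. Their median differences were 0.09, 0.08 and 0.05, against -0.02, 0.00 and 0.03 for all genes.

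**Figure D5:**
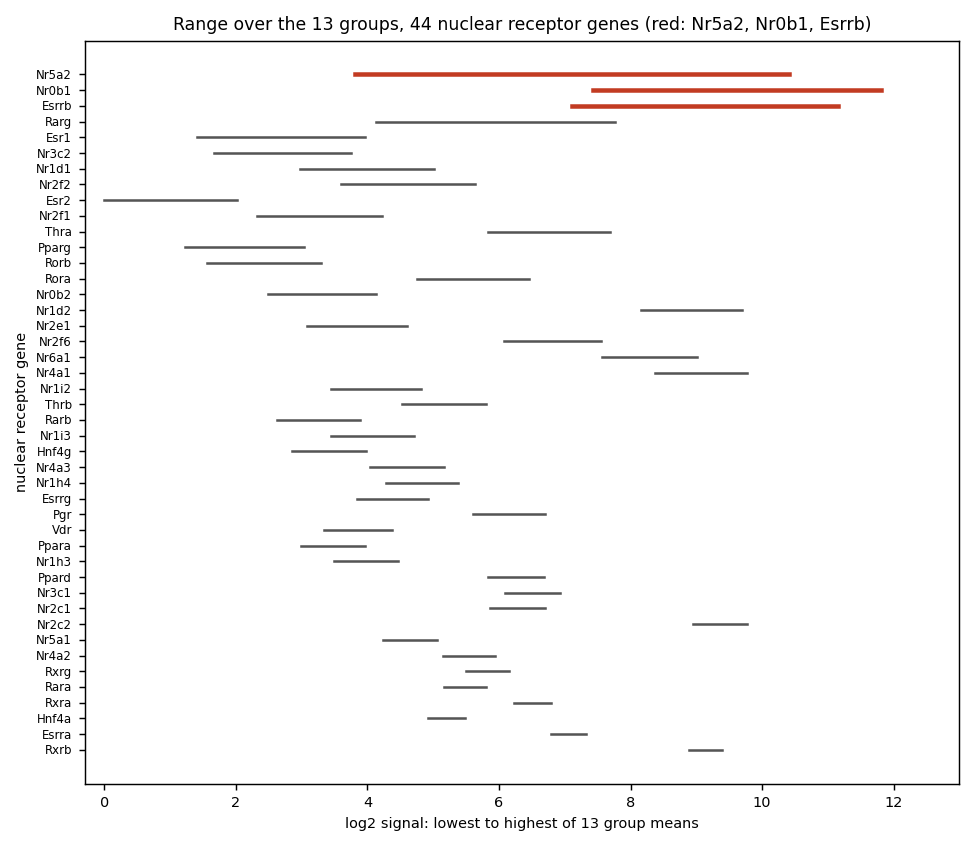
Range of the 13 group means (x axis, log2 signal) for each of 44 nuclear receptor genes (y axis), ordered by span; red lines are Nr5a2, Nr0b1 and Esrrb. The 3 red lines are the longest, at 6.60, 4.38 and 4.04.

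Between labelled knockout and wild type, 1 of the 41 others was called in serum and 1 in serum without LIF, both times the thyroid hormone receptor Thra, higher by 0.51 (adjusted p = 0.0158 and 0.0146), beside 4.17% and 4.19% of all genes. In 2i, 4 were called, near the background of 9.15%: Rarg was higher by 1.02, Nr4a1 by 0.47 and Nr2c2 by 0.26, and Nr1d2, a heme-binding repressor of the circadian clock, was lower (-0.56). With MEK inhibitor Rarg was higher by 1.34 (adjusted p = 0.00220) and Thra by 0.41 (4.08% of all genes called). Between AGP14 and labelled knockout, 2 of 41 were lower in serum (5.28% of all genes lower), Nr0b2 (-1.58, adjusted p = 0.0172) and Nr2f6 (-0.46). Nr0b2, known as SHP, is the closest relative of Nr0b1 and also lacks the DNA-binding domain, and its group means reached at most 4.14. Without LIF Nr1d2 was higher by 0.67 and Nr2f6 lower (-0.64). In EpiLC of day 2 against wild type in 2i, 4 others were higher and 3 lower (17.2% and 21.1% of all genes), led by Nr2f6 (1.38), Rarg (2.27), Nr2c2 (-0.51), Nr4a1 (-0.90) and Nr6a1 (0.76), the last a repressor of Pou5f1 during differentiation.

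Of 16 coregulators listed, 14 were measured. From 2i to serum, 5 of 14 were lower and 1 higher in wild type and in labelled knockout, where 34.6% and 35.8% of all genes were called. The coactivator Ncoa6 had the smallest p of the list in both, with differences of -1.37 in wild type (adjusted p = 2.38e-07) and -1.45 in the labelled knockout (adjusted p = 1.09e-07), beside -0.36 and -1.15 for Nr0b1. In AGP14 cells in 2i, where no member was called, 6 of 14 were lower than in the labelled knockout (16.0% of all genes lower) and 7 of 14 lower than in wild type (18.2%). Among these were Ncoa1 against the labelled knockout (-0.93, adjusted p = 0.000708) and Ppargc1b, a coactivator of estrogen-related receptors, against wild type (-1.02, adjusted p = 0.000793). Ncoa3, a coactivator that binds Esrrb in stem cells, was higher in AGP14 than in labelled knockout without LIF by 0.70 (adjusted p = 0.000735). It was 1 of 4 among the 14 called higher there (8.09% of all genes higher). It fell by 0.52 when LIF was removed in the labelled knockout (adjusted p = 0.0460), the 1 call of 14 there (1.10% of all genes called). Removal of LIF gave 0 calls of 14 in wild type and in AGP14 cells (1.50% and 0.302% of all genes). Ncoa3 was lower in EpiLC of day 2 than in wild type in 2i (-0.97, adjusted p = 3.39e-06). Nrip1, a corepressor of nuclear receptors, was lower in labelled knockout than in wild type in serum (-0.43, adjusted p = 0.0334) and without LIF (-0.48, adjusted p = 0.0164). Carm1, an arginine methyltransferase that works with coactivators, was higher in both (0.40 and 0.31). Without LIF Med1 was lower too (-0.49, adjusted p = 0.0383). In all, 1 of 14 was higher and 1 lower in serum, and 1 was higher and 2 lower without LIF. The shares of all genes called were 4.17% and 4.19%. In EpiLC of day 2, 7 of 14 were lower and 1 higher (21.1% and 17.2% of all genes), led by Nrip1 (-1.14), Ncoa2 (-1.04) and Med1 (-1.33), with a list median of -0.56 against -0.02 for all genes.

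Of 12 measured partners of the naive network, which include Prdm14 itself, 5 were lower in labelled knockout than in wild type in serum and 4 without LIF, with medians of -0.72 and -0.73 against -0.02 and -0.01 for all genes, of which 2.79% and 2.44% were lower. Those named in serum were Klf5 (-0.88), Tcl1 (-1.83), Zfp42 (-0.56), Klf2 (-0.60) and Nanog (-0.74). In AGP14 against labelled knockout, 8 of 12 were higher in serum and 9 without LIF (5.23% and 8.09% of all genes), led without LIF by Klf2 (2.01), Tcl1 (3.99), Klf5 (1.47), Tfcp2l1 (3.23) and Nanog (1.99). Removal of LIF lowered 9 of 12 in wild type, 7 in labelled knockout and 1, Klf5 (-0.80), in AGP14 cells (1.17%, 0.830% and 0.187% of all genes). In EpiLC of day 2, 9 of 12 were lower (21.1% of all genes), led by Klf2 (-5.41), Klf5 (-3.79), Zfp42 (-2.04), Tcl1 (-5.46) and Klf4 (-6.54). Of the 7 core pluripotency genes, between labelled knockout and wild type limma called 0 in serum, with 0 at an unadjusted p under 0.05, and 1 without LIF, Sox2 (-0.45, adjusted p = 0.0114). Of 9 primed and epiblast-like genes, 4 were lower and 1 higher in AGP14 than in labelled knockout in serum (5.28% and 5.23% of all genes), among them the POU factor Pou3f1 (-2.25) and the growth factor Fgf5 (-2.38).

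Genes that these receptors control in other tissues were also followed, 10 of 11 listed. Cyp11a1, the enzyme that starts steroid synthesis from cholesterol and a target of NR5A receptors in the adrenal gland and gonad, was higher in AGP14 than in labelled knockout in serum (0.82, adjusted p = 0.0157) and without LIF (1.03, adjusted p = 0.00230), and no other gene of the list was called there. The shares of all genes called there were 10.5% and 13.3%. It was also higher in AGP14 than in wild type in 2i (1.16, adjusted p = 0.000473), in serum (1.08, adjusted p = 0.00631) and without LIF (1.19, adjusted p = 0.00136). In 2i 1 of the 10 was also called lower than in wild type. Of all genes 25.4%, 6.96% and 10.7% were called in these 3 comparisons. In serum the means of Cyp11a1 in labelled knockout and wild type were 5.87 and 5.61. Nr5a2 and Esrrb were higher in 2i than in serum in wild type, and Cyp11a1 was lower in 2i than in serum, at 4.06 and 5.61 in wild type (adjusted p = 1.01e-05). In that comparison 1 of the 10 was called higher in serum and 1 lower, where 34.6% of all genes were called. Between labelled knockout and wild type limma called 0 of the 10 in any of the 4 media, with 2, 2, 0 and 2 at an unadjusted p under 0.05 in 2i, serum, serum without LIF and MEK inhibitor. Of all genes 9.15%, 4.17%, 4.19% and 4.08% were called, so a count of 0 of 10 is near the background.

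Likeness of pattern was described by Pearson's r over the 13 group means among 3218 genes that spanned 2 or more; the points share lines and media, so no p is given. The members resembled each other, with r = 0.972 for Nr5a2 and Esrrb, 0.964 for Nr5a2 and Nr0b1 and 0.935 for Nr0b1 and Esrrb. Many other genes were as much alike. By likeness to Nr5a2, Esrrb ranked 18 and Nr0b1 29. By likeness to Nr0b1, Nr5a2 ranked 4 and Esrrb 15, and by likeness to Esrrb, Nr5a2 ranked 11 and Nr0b1 70. The genes most like Nr5a2 were Zfp42 (0.989), Stmn2, Arid5b, Zfp296 and Lima1 (0.984). Those most like Nr0b1 were Stmn2 (0.982), C730049O14Rik, Morc1, Nr5a2 and Tcl1 (0.963), and those most like Esrrb were Acsbg3 (0.993), Jam2, Lrrc34, Fzd5 and Grhl3 (0.980). Prdm14, as its probe set reads it, was less like them, with r = 0.846 to Nr5a2, 0.730 to Nr0b1 and 0.888 to Esrrb.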

How the data were processed

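RNA was extracted on RNeasy Micro columns and labelled as biotinylated cRNA by the Affymetrix one-cycle protocol, per the labels. The deposited table holds 1 value per probe set and array on a log2 scale, from 0 to 13.89, for 45100 probe sets and 26 arrays. Its base was inferred from that range. For image analysis, background correction and normalization, the steps of the authors are in no source used here. The platform annotation gives 1 gene symbol for 34944 probe sets and several for 932, which were left out; 64 are controls and 9160 have no listed gene. Among probe sets of a single symbol, the one of highest mean stood for each of 18193 genes.

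The tests used limma 3.58.1 (R 4.3.3), in 1 model with a coefficient per group over all 26 arrays (13 residual degrees of freedom) and an intensity trend. The spread of a gene was pooled over all groups, so its SE was the same in every comparison of 2 groups. The groups did not spread alike. For Nr5a2 the SD of the 2 arrays ran from 0.0141, as in AGP14 cells in 2i, to 0.665 in wild type without LIF. Tests were two-sided, Benjamini-Hochberg adjustment ran over all genes of each comparison, and called means an adjusted p under 0.05. The procedure was tested on simulated data. Tables used Python 3.11.15 with pandas 2.3.3 and numpy 2.4.6, and plots matplotlib 3.10.9. Comparisons that use the same group share its arrays. The number of arrays limits the precision.

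The members and the gene lists were chosen with earlier results of these data known. Named besides the members and Prdm14 are, per list and comparison, up to 5 called genes with the smallest p, and per member the 5 genes most like it. Alternatives were quantile normalization, the mean of a gene's probe sets, each further probe set, dim genes left out, no trend, a replicate block, line as a random block, the arrays of the compared groups alone and each array left out.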

Additional observations from a re-analysis of the deposited data

Results flagged for a closer look

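For Nr0b1 and Esrrb some contrasts ran in opposite directions in 2 groups, with every array of one group on one side and every array of the other on the opposite side. These differences of direction were not tested. Nr0b1 was lower in serum than in 2i in the labelled knockout (-1.15) and had a difference of 0.48 in AGP14 cells, which was not called (adjusted p = 0.256). Esrrb in AGP14 against labelled knockout had a difference of -0.44 in 2i, 1.69 in serum and 2.87 when LIF was absent. Against wild type, Esrrb in AGP14 cells had -0.53 in 2i, 0.87 in serum and 1.70 in serum without LIF. For Nr0b1 the same comparison gave -0.19 in 2i, 0.65 in serum and 1.75 without LIF. None of the values in 2i passed the limma test, nor did those of AGP14 against wild type in serum (adjusted p = 0.0582 for Esrrb and 0.150 for Nr0b1). The comparisons with AGP14 in 2i, and serum against 2i in the labelled knockout, set arrays of the 2 poly-A control sets against each other, which cannot be told apart from the condition.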

How the results depend on the processing

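Of 317 alternative counts of members called, 284 stayed within the limits of the reported count, 18 were smaller and 15 larger; of 1086 alternatives for single members, 977 kept direction and call, 47 lost the call, 24 gained it and 38 changed sign. Causes of these changes were not tested. The fits to the compared groups alone rest on fewer arrays and on the spread of those groups only, not on the spread pooled over all groups. Those fits called 0 members for labelled knockout against wild type in serum and without LIF, for removal of LIF in both lines and for AGP14 against wild type in serum. They called 1, Esrrb, for AGP14 in 2i against either line, 2 for AGP14 in serum against 2i and 3 for AGP14 without LIF against serum. For AGP14 against wild type in serum the count was 2 with quantile normalization, dim genes left out, a replicate block or line as a random block, and 0 with the mean of probe sets or no intensity trend. EpiLC day 3 against day 2 gave 2 with line as a random block. The interaction of genotype with serum against 2i gave 1 with a replicate block or with line as a random block, and that of AGP14 and labelled knockout with LIF gave 2 with line as a random block.

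With 1 array left out, the counts ran from 0 to 3 for labelled knockout against wild type in serum, from 0 to 2 for AGP14 against wild type in serum, and from 0 to 3 for removal of LIF in wild type. They ran from 1 to 2 for MEK inhibitor in wild type, from 0 to 1 for EpiLC day 3 against day 2 and for the interaction with serum against 2i, and from 0 to 2 for that of AGP14 and labelled knockout with LIF.

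Signs turned mostly where the reported difference was near 0 or with the Nr5a2 probe set 1449707_at; 6 of the 38 were of called differences. That probe set gave 0.42 for labelled knockout against wild type without LIF and 0.19 with MEK inhibitor, and without LIF -0.65 and -0.23 for AGP14 against labelled knockout and wild type. It gave 0.18 and 0.26 for serum against 2i in wild type and AGP14 cells, 0.63 for removal of LIF in labelled knockout, -0.58 for MEK inhibitor against serum in wild type, 0.30 for MEK inhibitor against 2i in labelled knockout and 0.015 for EpiLC day 3 against day 2. For the interactions with removal of LIF it gave 1.16 (labelled knockout and wild type), -1.43 (AGP14 and labelled knockout) and -0.27 (AGP14 and wild type). Nr5a2 turned to -0.18 with 1420410_at and -0.36 with 1449706_s_at for AGP14 against labelled knockout in 2i, to 0.24 and 0.12 with the same probe sets for AGP14 in serum against 2i, and with 1449706_s_at to 0.045 for MEK inhibitor against 2i in wild type and 0.57 for EpiLC day 3 against day 2. Esrrb turned with 1441921_x_at to 0.18 for labelled knockout against wild type in 2i, 0.14 for AGP14 against wild type in 2i and 0.33 for MEK inhibitor against 2i in wild type. With 1422986_at it turned to 0.075 and 0.15 in the first and last of these, to 0.045 for AGP14 in serum against 2i and to 0.17 for the interaction of genotype with removal of LIF. With the mean of probe sets Esrrb turned to 0.055 for labelled knockout against wild type in 2i and 0.15 for MEK inhibitor against 2i in wild type, and Nr5a2 to 0.051 for AGP14 in serum against 2i. Quantile normalization turned Nr5a2 in AGP14 against wild type in 2i to 0.057. With 1 array left out that difference ran from -0.21 to 0.060, Esrrb in AGP14 in serum against 2i from -0.065 to 0.025, and Nr0b1 for MEK inhibitor against serum in wild type from -0.025 to 0.63. For MEK inhibitor against 2i in wild type Nr0b1 ran from -0.17 to 0.045 and Esrrb from -0.105 to 0.025, and Esrrb ran from -0.87 to 0.17 for the interaction of genotype with removal of LIF.

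Same-numbered arrays deviated together in wild type (6 of 6 pairs of media with a correlation over 0.1, median 0.162) and in labelled knockout (5 of 6, median 0.128) but not in AGP14 cells (0 of 3), and the labels give no shared origin. With the replicate block no reported call of a member was lost. The block added calls of Esrrb in serum for labelled knockout (adjusted p = 0.0356) and AGP14 (0.0204) against wild type, and of Nr5a2 for the interaction with serum against 2i (0.0488), with limma.
Counts over all genes moved by more than 1.5 times in many comparisons: the reported 1665, 759, 763 and 742 for labelled knockout against wild type in 2i, serum, serum without LIF and MEK inhibitor ranged over 25 to 1958, 2 to 1050, 20 to 1023 and 21 to 931. AGP14 against labelled knockout in the first 3 media gave 4401, 1912 and 2421 (2858 to 4731, 882 to 2258 and 1290 to 2720), and against wild type 4614, 1267 and 1941 (2807 to 4960, 153 to 1692 and 462 to 2371). Serum against 2i gave 6286 in wild type (3664 to 7292) and 3309 in AGP14 cells (1735 to 4517). Removal of LIF gave 273, 200 and 55 in wild type, labelled knockout and AGP14 cells (0 to 755, 9 to 474 and 5 to 518). MEK inhibitor in wild type and labelled knockout gave 4630 and 4461 against serum (1822 to 5829 and 2602 to 5557) and 2277 and 2401 against 2i (273 to 3330 and 472 to 3409), and EpiLC day 3 against day 2 gave 3198 (2042 to 4316). The interactions of genotype gave 541 for serum against 2i (15 to 1217), 42 for MEK inhibitor (0 to 243) and 0 for LIF (0 to 2), and those of AGP14 with LIF 14 and 0 (0 to 33 and 0 to 6).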
